A study of Mus musculus with 7 samples.

Results

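The 38 genes described here drive or mark passage through the cell cycle and the copying of DNA. They were chosen by symbol from a list that was set with earlier results of these data known. All 38 were found among the 14795 genes of the duodenal expression table, and all 38 were among the 13399 genes that passed the filter on low values. RNA of whole duodenum was sequenced from C57BL/6 mice of 2 genotypes. The controls, called lox/lox, carried Ppar-alpha loxP/loxP alone (n = 3 mice). Ppara I-KO mice carried the same floxed alleles with Villin-Cre, which is expressed in the intestinal epithelium, so that other cells of the duodenal wall keep an intact gene (n = 4 mice). All mice had gone without food through the afternoon, were refed in the evening and were sacrificed at midnight. According to the study's methods they were male littermates on a high-fat diet, and the labels give neither diet nor age. The study followed crypt proliferation in jejunum and in cultured jejunal crypts, and reported it reduced after PPARα loss. The libraries here are of another segment, the duodenum. This comparison asks whether transcripts of the cycle differed between the genotypes there.

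In the small intestine, cell division is confined to the crypts, where stem cells and their transit-amplifying daughters divide quickly, while the enterocytes that cover the villi have left the cycle. D-type cyclins with CDK4 or CDK6 release E2F factors from the retinoblastoma proteins, cyclin E and CDK2 carry the cell into S phase, and the MCM helicase, loaded at origins by CDC6 and CDT1, opens the DNA. Cyclin A and the B-type cyclins with CDK1 then take the cell into mitosis, where kinases such as AURKB and PLK1, checkpoint proteins and motor proteins separate the chromosomes. Most of these transcripts are made in waves, under E2F proteins at the G1/S boundary and under the MMB complex (MuvB with MYBL2) and FOXM1 before mitosis.

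The promoters were searched for motifs of both waves. RefSeq promoter windows on GRCm38.p6 ran from 250 bases before to 50 bases after a transcript start. They were used for 31 of the 38 genes, all but Ccnd1, Ccnd2, Ccna2, Foxm1, Mcm4, Aurkb and Kif20a. Windows on chromosome 18, where Kif20a lies, were left out, also from the shares of all genes. The search covered both strands and took in E2F sites (TTTCCCGC, TTTGGCGC or TTTCGCGC, which can overlap one another), the cell cycle homology region or CHR element (TTTGAA), to which MuvB complexes bind, and the CCAAT box (CCAAT). An E2F site was present in 7 of the 19 genes that act from G1 to S phase (36.8%), beside 2.12% of all 27025 genes with a window. These were Cdk2 and the licensing genes Cdc6, Cdt1, Mcm3, Mcm5, Mcm6 and Mcm7. The genes of G1 entry and of DNA synthesis that were searched held none, and neither did Ccne1, E2f1, Mybl2 and Mcm2. Among the 12 genes of G2 and mitosis 1 held an E2F site (8.33%). A CHR element was present in 9 of the 12 genes of G2 and mitosis (75.0%) and in 1 of the 19 earlier genes (5.26%), beside 20.2% of all genes. A CCAAT box was present in 11 of the 12 later genes (91.7%) and in 10 of the 19 earlier genes (52.6%), beside 41.1% of all genes. A match is a run of letters and not a measured binding site, and these counts are given without a test.

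**Figure D1:**
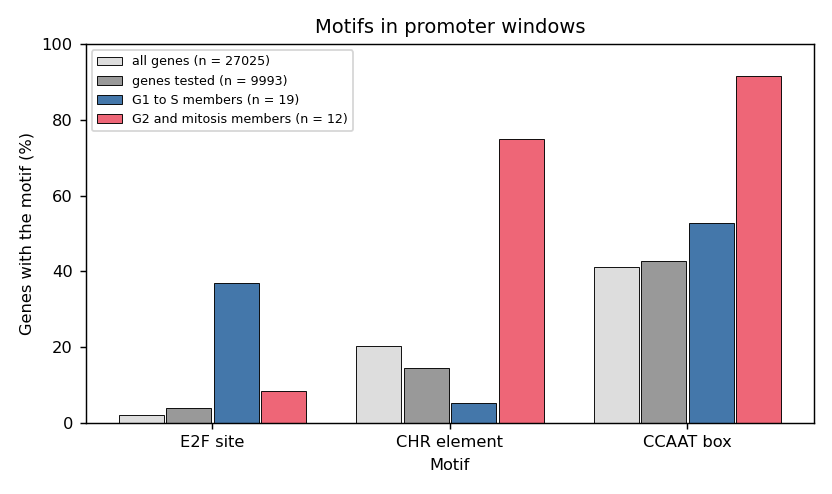
Share of genes (vertical axis, percent) whose promoter window of 300 bases held an E2F site, a CHR element or a CCAAT box (horizontal axis), for all genes with a window, the genes tested, and the cell cycle genes split into those of G1 to S phase (n = 19) and those of G2 and mitosis (n = 12). E2F sites stood in 36.8% of the earlier genes and CHR elements in 75.0% of the later ones. The earlier genes with an E2F site were Cdk2 and genes of licensing.

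Windows of 6 genes are shown as examples of the motifs of the 2 waves. Mcm2 and Mcm3 were also taken because 1 library stood apart on them. The search that flagged them found 3 such values, where about 2.5 come by chance. Capitals mark every match to the 3 motifs, on either strand. Mcm3 and Mcm6 code for helicase subunits and hold E2F sites. Ccnb2 (cyclin B2) holds 2 CHR elements and 3 CCAAT boxes. Cdc20 (an activator of the anaphase-promoting complex) holds 1 CHR element and 2 CCAAT boxes, and Plk1 (polo-like kinase) holds 1 of each. Mcm2 is the earlier gene with a CHR element.
Mcm3, chr1:20820263-20820562, minus strand: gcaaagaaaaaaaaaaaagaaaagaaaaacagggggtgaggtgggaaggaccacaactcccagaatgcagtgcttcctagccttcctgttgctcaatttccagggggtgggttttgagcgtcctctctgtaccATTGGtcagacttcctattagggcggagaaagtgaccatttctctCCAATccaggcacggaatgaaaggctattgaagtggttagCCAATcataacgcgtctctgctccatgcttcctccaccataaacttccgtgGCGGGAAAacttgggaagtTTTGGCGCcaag
Mcm6, chr1:128359656-128359955, minus strand: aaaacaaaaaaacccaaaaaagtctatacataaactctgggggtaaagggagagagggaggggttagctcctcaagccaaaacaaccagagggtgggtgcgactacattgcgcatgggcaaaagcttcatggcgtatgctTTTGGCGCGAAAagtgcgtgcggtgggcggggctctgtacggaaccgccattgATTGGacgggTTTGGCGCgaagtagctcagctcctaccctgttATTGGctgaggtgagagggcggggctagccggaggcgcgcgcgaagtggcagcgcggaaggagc
Ccnb2, chr9:70421505-70421804, minus strand: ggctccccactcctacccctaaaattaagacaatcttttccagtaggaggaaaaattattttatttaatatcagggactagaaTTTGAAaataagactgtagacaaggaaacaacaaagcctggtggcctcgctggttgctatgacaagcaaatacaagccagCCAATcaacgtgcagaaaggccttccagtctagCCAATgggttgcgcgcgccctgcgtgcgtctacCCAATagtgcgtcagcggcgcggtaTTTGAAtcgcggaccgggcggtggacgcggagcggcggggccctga
Cdc20, chr4:118437294-118437593, minus strand: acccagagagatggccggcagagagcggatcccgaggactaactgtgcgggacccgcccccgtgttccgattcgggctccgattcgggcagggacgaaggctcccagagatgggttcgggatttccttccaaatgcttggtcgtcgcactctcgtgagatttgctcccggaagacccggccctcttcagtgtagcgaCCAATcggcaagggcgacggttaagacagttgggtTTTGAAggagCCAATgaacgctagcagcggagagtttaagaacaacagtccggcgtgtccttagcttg
Plk1, chr7:122159185-122159484, plus strand: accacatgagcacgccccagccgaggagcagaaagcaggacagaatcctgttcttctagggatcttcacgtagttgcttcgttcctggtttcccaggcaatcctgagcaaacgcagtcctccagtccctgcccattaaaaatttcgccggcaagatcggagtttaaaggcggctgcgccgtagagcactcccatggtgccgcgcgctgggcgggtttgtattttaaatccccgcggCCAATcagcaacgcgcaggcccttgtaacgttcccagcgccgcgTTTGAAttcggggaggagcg
Mcm2, chr6:88898731-88899030, minus strand: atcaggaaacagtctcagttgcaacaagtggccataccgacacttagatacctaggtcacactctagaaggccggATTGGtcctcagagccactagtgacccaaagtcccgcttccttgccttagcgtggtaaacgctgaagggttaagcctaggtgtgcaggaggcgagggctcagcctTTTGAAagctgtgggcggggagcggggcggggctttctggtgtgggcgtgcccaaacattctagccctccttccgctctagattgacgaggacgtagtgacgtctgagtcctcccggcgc
In Mcm6 the capitals run on where 2 E2F words on opposite strands overlap. In Mcm2 the window held 1 CHR element and 1 CCAAT box and none of the 3 E2F words.

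Levels are normalised counts (CPM, read counts divided by an adjusted library size). The depth on the genes of the table was between 20744162 and 25866656 reads a library. The counting error was between 1.55% and 2.28% per library for Mki67 and between 2.82% and 3.61% for Ccnd1, and it reached 17.2% for Cdk6, which had between 34 and 85 reads. All 8 pan-epithelial markers were measured, with a summed level of between 9177 and 11486 CPM. Ppara itself stood at 53.4, 49.3 and 63.2 CPM in lox/lox libraries 1 to 3 and at 33.1, 40.6, 47.5 and 69.9 CPM in I-KO libraries 1 to 4. The groups overlapped, and the library labelled I-KO 4 was the highest of all 7. Reads over the whole gene were counted, of which Cre removes a part, so this level does not check the genotypes, and libraries are named by their labels throughout. Pancreatic acinar transcripts summed to 400 CPM in I-KO 1 and to 86.1 CPM in lox/lox 2, and to between 19.1 and 35.03 CPM in the other libraries.

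Per kilobase of exonic sequence, in lox/lox mice, Pcna, the sliding clamp of DNA polymerases, was the most abundant of the 38 at 43.5 CPM per kb. It was followed by Cdk4 at 25.5, Ccnb2 at 15.6, Cdc20 at 14.3 and the proliferation marker Mki67 at 14.2 CPM per kb. At the low end stood E2f1 at 1.95, Ccne1 (cyclin E1) at 1.93, Cdc6 at 1.36 and Cdk6 at 0.237 CPM per kb. The kinase partners of the D cyclins were thus unequal, and the ratio of Cdk4 to Cdk6 counts, not scaled to length, was 25.0 ± 1.99 within lox/lox libraries (SD, n = 3) and 28.5 ± 5.78 within I-KO libraries (SD, n = 4). The genotypes did not differ in this ratio beyond the spread between mice (difference 0.17 on the log2 scale, exact two-sided permutation test, p = 0.429).

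Between the genotypes, no gene of the cell cycle passed the test, and 1 of them, Ccnd1, stood lower in every I-KO mouse than in every lox/lox mouse. Ccnd1 codes for cyclin D1, which couples growth signals to entry into the cycle. Its mean in I-KO mice was 82.0% of that in lox/lox mice. For the other 37 genes the intervals of the difference held 0. A larger contrast was found among the I-KO mice. Most of these genes were low in I-KO 3, and most genes of G2 and mitosis were also low in I-KO 1. With limma and Benjamini-Hochberg adjustment over all 13399 genes, 0 of the 38 were called at an adjusted p of 0.05, where 4 genes (0.0299%) were called in all, and the smallest adjusted p among the 38 was 0.791. At an unadjusted p of 0.05, 1 of the 38 was lower in I-KO mice (2.63%, beside 2.42% of all genes) and 0 were higher (beside 2.32%). Without overlap between the groups, 1 was lower (2.63%, beside 3.28% of all genes) and 0 were higher (beside 2.91%). These shares were near the background, so they set the 38 genes apart in neither direction.

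The means of 31 of the 38 genes were lower in I-KO mice on the log2(value + 1) scale (81.6%, beside 49.4% of all genes), by small amounts. The median difference was -0.06, beside 0.0017 over all genes, and single genes ran from -0.30 for Bub1 to 0.14 for Cdt1. The 95% intervals had a median half-width of 0.32, so differences smaller than this were mostly not detectable in a single gene with 3 and 4 mice. This lean depended on I-KO 3: without that library 15 of the 38 were lower and the median difference was 0.03. I-KO 3 was the lowest library for 31 of the 38, so leaving it out had to raise most I-KO means. Without I-KO 3, 16 of the 38 differences changed sign and 11 kept their sign but were over 1.5 times smaller, among them those of Tyms, Cdk1, Top2a and Bub1b, which became -0.11, -0.040, -0.040 and -0.0082. Without lox/lox 2, 21 were lower. Without I-KO 2, 34 were lower, and without I-KO 4, 32 were.

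**Figure D2:**
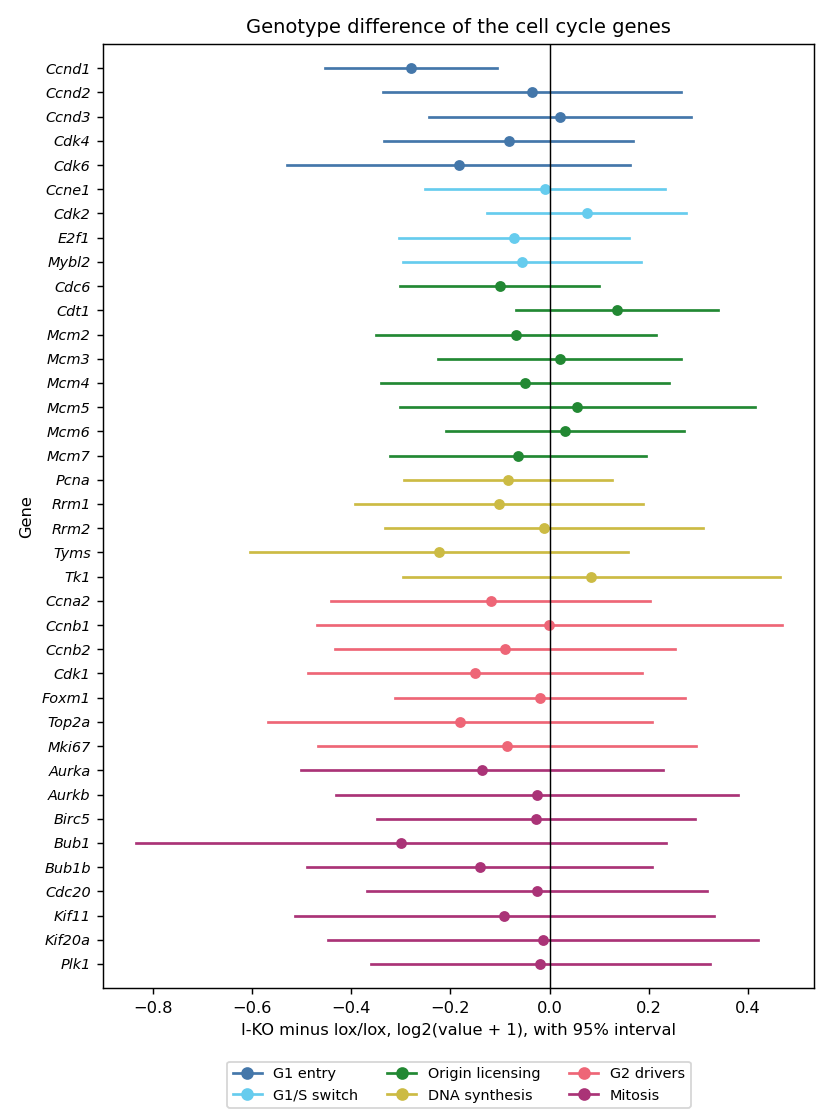
Difference between Ppara I-KO and lox/lox mice for each of the 38 genes (horizontal axis, log2(value + 1) scale, negative where lower in I-KO), with bars for the 95% interval of the limma fit and colours for the phase of the cycle. The interval of Ccnd1 ends below 0 (-0.45 to -0.11), and the intervals of the other 37 genes all hold 0.

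Among the 5 genes of G1 entry, Ccnd1 (chr7:144929931-144939925 on GRCm38, minus strand) had levels of 52.1, 52.3 and 49.5 CPM in lox/lox mice and of 44.8, 41.9, 40.6 and 41.0 CPM in I-KO mice. The lowest control lay above the highest I-KO mouse, and the SD within a group was at most 1.88 CPM. The difference was -0.28 on the log2 scale (standard error 0.08, limma, unadjusted p = 0.00543, adjusted p = 0.791). The exact two-sided permutation test gave p = 0.0286, the smallest that 3 against 4 mice allow. Over all 14 alternative settings the difference stayed between -0.32 and -0.26, with an unadjusted p of between 0.00146 and 0.0256 and an adjusted p of between 0.342 and 1.00. In I-KO 2 and I-KO 4, where the median of the 38 genes stood at 109.0% and 106.7% of the lox/lox mean, Ccnd1 stood at 81.7% and 79.9%. It was the 1 gene of the 38 below all 3 controls in both of these mice, which for Ccnd1 follows from the groups not overlapping. In I-KO 4 alone, Ccnd3, E2f1, Cdc6 and Aurka were also below all controls.

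For the sister cyclins the groups overlapped. Ccnd2 (cyclin D2) was at 90.8, 101.6 and 96.1 CPM in lox/lox mice and at 86.1, 96.1, 79.1 and 117.8 CPM in I-KO mice, so that the I-KO mice lay on both sides of the controls. Ccnd3 (cyclin D3) was at 44.4, 50.6 and 49.9 CPM in lox/lox mice and at 58.3, 50.9, 44.2 and 43.7 CPM in I-KO mice, with I-KO 1 the highest and I-KO 4 the lowest of all 7. The count ratio of Ccnd1 to Ccnd3 within a library was 1.07 ± 0.10 in lox/lox mice (SD, n = 3) and 0.862 ± 0.08 in I-KO mice (SD, n = 4), without overlap. That is a difference of -0.31 on the log2 scale, with p = 0.0286 in the exact two-sided permutation test and 0.171 after Benjamini-Hochberg adjustment over the 6 ratios tested. The ratio of Ccnd1 to Ccnd2 differed by -0.25 (exact two-sided permutation test, p = 0.229, adjusted p = 0.583). Thus Ccnd1 stood lower against Ccnd3 in all 4 I-KO mice, but neither ratio passed the correction.

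**Figure D3:**
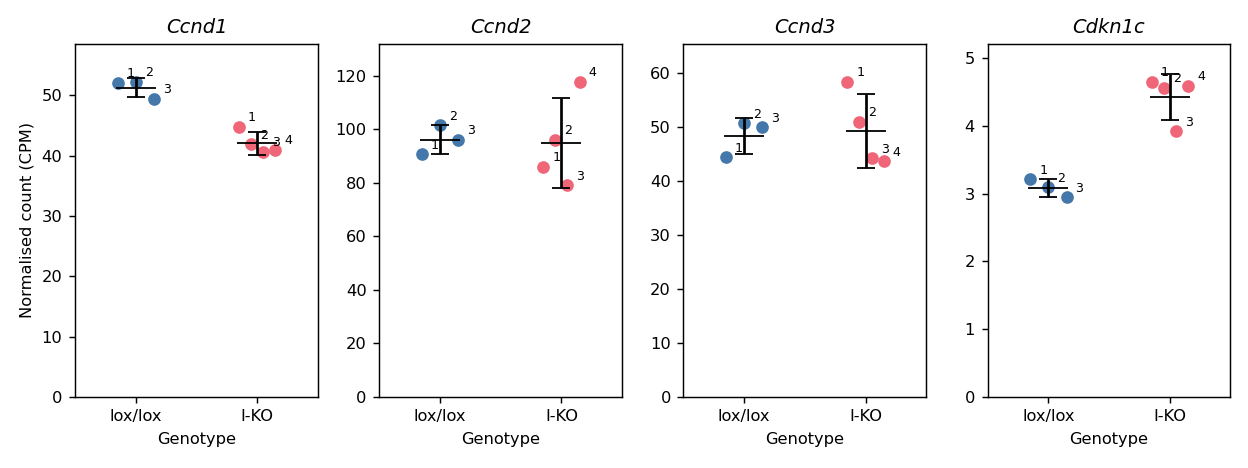
Normalised counts (vertical axis, CPM) of the 3 D-type cyclins and of the CDK inhibitor Cdkn1c in each lox/lox and I-KO mouse (points, with the replicate number), with the mean and SD of each group as bars. The groups do not overlap for Ccnd1 (lower in I-KO) and Cdkn1c (higher in I-KO), and they overlap for Ccnd2 and Ccnd3.

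The kinases of G1 entry had no difference that passed the test. Cdk4 averaged 82.9 ± 6.75 CPM in lox/lox mice (SD, n = 3) and 78.4 ± 9.03 CPM in I-KO mice (SD, n = 4). Cdk6 was at 3.06, 3.56 and 3.34 CPM against 3.02, 3.18, 1.8 and 3.43 CPM, with 1 low value, in I-KO 3. The 4 genes of the G1/S switch differed by between -0.07 and 0.07 on the log2 scale, and in I-KO 3 their median was 97.7% of the lox/lox mean. Ccne1 averaged 5.14 ± 0.59 and 5.11 ± 0.61 CPM, Cdk2 20.4 ± 0.90 and 21.6 ± 1.76 CPM, E2f1 (the transcription factor that opens the S phase programme) 6.14 ± 0.60 and 5.80 ± 0.65 CPM, and Mybl2 11.2 ± 0.72 and 10.8 ± 1.36 CPM, in lox/lox (SD, n = 3) and I-KO mice (SD, n = 4). E2f1 was highest of all libraries in I-KO 3, at 6.67 CPM.

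Licensing of origins involved 8 genes, of which 4 had a lower and 4 a higher mean in I-KO mice, with a median difference of -0.01 on the log2 scale. Mcm2 was at 31.0, 31.9 and 29.4 CPM in lox/lox mice and at 31.4, 31.8, 22.9 and 32.2 CPM in I-KO mice. Mcm3 was at 30.5, 31.2 and 32.7 CPM in lox/lox mice and at 33.3, 34.5, 26.3 and 34.3 CPM in I-KO mice. For both, I-KO 3 was low and the other 3 I-KO mice lay at the level of the controls or slightly above. All 6 subunits of the helicase, Mcm2 to Mcm7, were lowest in I-KO 3, whereas their loaders were not. Cdt1 had the largest difference upwards of the 38 genes, with 23.4 ± 0.79 CPM in lox/lox mice (SD, n = 3) and 25.9 ± 2.27 CPM in I-KO mice (SD, n = 4), which did not pass the test (difference 0.14, limma, unadjusted p = 0.166). Cdc6 was at 7.70, 6.95 and 6.72 CPM in lox/lox mice and at 6.80, 7.15, 6.41 and 5.95 CPM in I-KO mice, with overlapping groups. The other helicase genes had differences of between -0.06 for Mcm7 and 0.06 for Mcm5.

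The 5 genes of DNA synthesis were all lowest in I-KO 3. Pcna was at 101.8, 105.7 and 105.9 CPM in lox/lox mice and at 96.6, 109.2, 87.5 and 102.1 CPM in I-KO mice. Tyms, thymidylate synthase, was at 28.7, 30.8 and 23.9 CPM in lox/lox mice and at 20.4, 29.6, 18.5 and 27.4 CPM in I-KO mice, with I-KO 1 and I-KO 3 below all controls and I-KO 2 and I-KO 4 among them. Tk1, thymidine kinase, which acts in the salvage route to the same nucleotide, was at 21.0, 25.8 and 20.7 CPM against 20.3, 27.0, 19.02 and 30.6 CPM, with I-KO 4 the highest. Tyms differed by -0.22 (limma, unadjusted p = 0.219) and Tk1 by 0.08 (unadjusted p = 0.627), and both stayed within the spread between mice. The subunits of ribonucleotide reductase, Rrm1 and Rrm2, had a count ratio of 1.82 ± 0.19 in lox/lox mice (SD, n = 3) and 1.70 ± 0.18 in I-KO mice (SD, n = 4), a difference of -0.09 on the log2 scale (exact two-sided permutation test, p = 0.429).

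All 7 genes of G2 had their lowest level in I-KO 3, and for all 7 both I-KO 1 and I-KO 3 lay below both I-KO 2 and I-KO 4. Mki67, the gene of the Ki-67 protein on mitotic chromosomes, was at 129.3, 158.4 and 140.1 CPM in lox/lox mice and at 121.2, 164.7, 102.0 and 157.7 CPM in I-KO mice. Top2a, the topoisomerase that untangles sister DNA, was at 119.5, 139.4 and 117.9 CPM in lox/lox mice and at 102.4, 138.5, 82.2 and 127.4 CPM in I-KO mice. Ccnb1, cyclin B1, was at 14.8, 20.3 and 16.8 CPM in lox/lox mice and at 13.7, 20.4, 12.98 and 23.7 CPM in I-KO mice. In each of these genes I-KO 1 and I-KO 3 were below all 3 controls, while I-KO 2 and I-KO 4 were within their range or above it. In the means this left a difference of -0.09 for Mki67 (limma, unadjusted p = 0.623), -0.18 for Top2a (unadjusted p = 0.319) and -0.0005 for Ccnb1 (unadjusted p = 0.998). Ccna2, Ccnb2, Cdk1 and Foxm1 differed by -0.12, -0.09, -0.15 and -0.02, none past an unadjusted p of 0.05.

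For 7 of the 9 mitotic genes I-KO 1 and I-KO 3 again lay below I-KO 2 and I-KO 4. I-KO 3 was lowest for 8 of the 9, and Birc5, which codes for survivin, was lowest in lox/lox 3. Bub1, a kinase of the spindle checkpoint, had the lowest log2 difference of the 38 genes, although by the ratio of means Ccnd1 was lower (82.0%, where Bub1 was at 82.4%). Bub1 was at 10.3, 13.9 and 10.5 CPM in lox/lox mice and at 7.18, 12.0, 6.14 and 12.8 CPM in I-KO mice. I-KO 1 and I-KO 3 lay below every control, and I-KO 2 and I-KO 4 lay among the controls, so that the difference of -0.30 had a standard error of 0.24 (limma, unadjusted p = 0.236) and was -0.13 without I-KO 3. Kif11, a motor that pushes the spindle poles apart, was at 30.5, 36.7 and 31.6 CPM in lox/lox mice and at 26.8, 34.8, 22.8 and 41.7 CPM in I-KO mice. Cdc20 was at 26.6, 28.4 and 24.8 CPM against 24.2, 30.0, 20.02 and 31.9 CPM, and Plk1 at 23.8, 26.8 and 22.7 CPM against 23.8, 29.1, 18.1 and 26.6 CPM. The I-KO mice thus reached both higher and lower than the controls for Cdc20 and Plk1. Aurka, Aurkb, Birc5, Bub1b and Kif20a differed by between -0.14 for Bub1b and -0.01 for Kif20a.

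**Figure D4:**
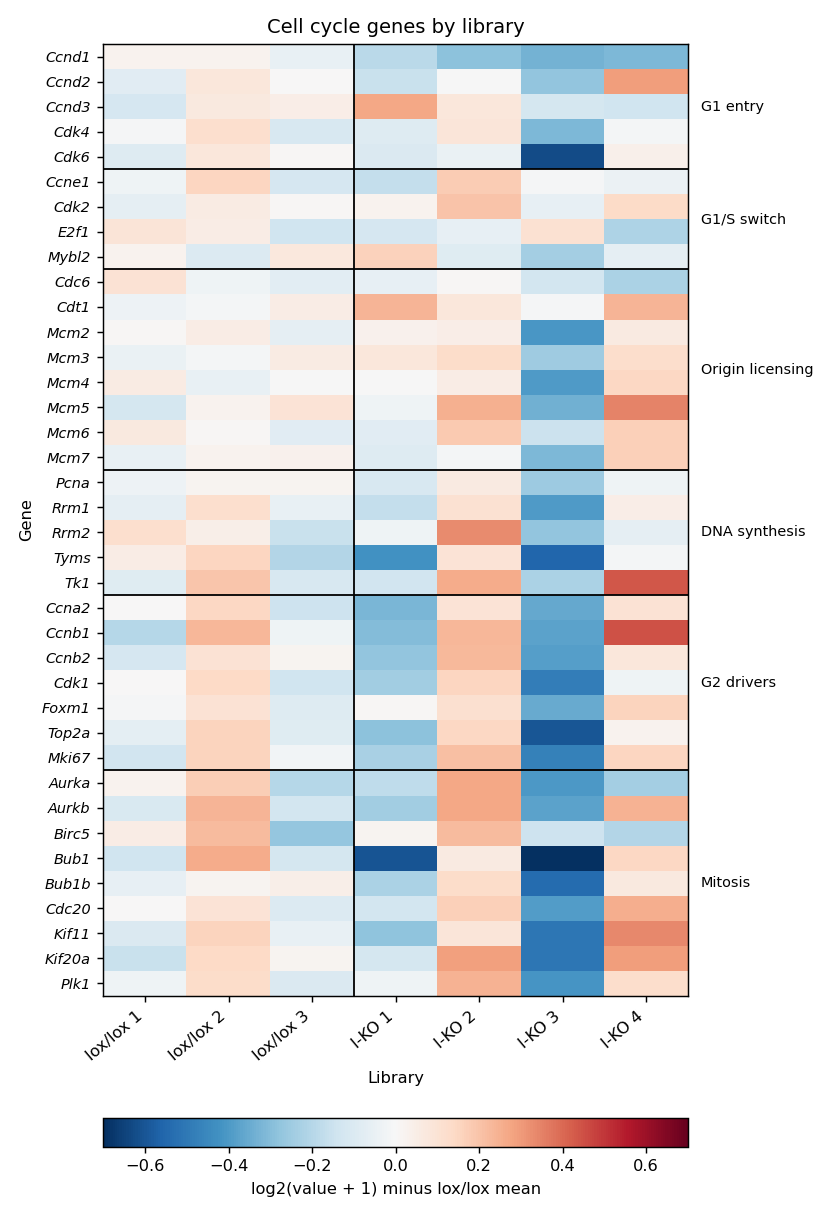
Level of each of the 38 genes (rows, by phase of the cycle) in each library (columns), as the difference in log2(value + 1) from the mean of the 3 lox/lox libraries. Blue is lower and red is higher. I-KO 3 is the lowest library in 31 of 38 rows, I-KO 1 is low mainly in the rows of G2 and mitosis, and Ccnd1 is blue in all 4 I-KO columns.

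The order of the libraries was shared across the set. I-KO 3 was the lowest of the 7 libraries for 31 of the 38 genes (81.6%), beside 17.1% of all genes tested. Both I-KO 1 and I-KO 3 lay below both I-KO 2 and I-KO 4 for 28 of the 38 genes (73.7%), beside 22.3% of all genes. The median of the 38 genes was 97.4%, 107.4% and 96.0% of the lox/lox mean in lox/lox 1 to 3, and 91.1%, 109.0%, 77.3% and 106.7% in I-KO 1 to 4, while the median of all genes tested stayed between 99.7% and 101.0% in every library. The SD between mice was larger among I-KO than among lox/lox mice for 37 of the 38 genes (97.4%, beside 8836 of 13394 genes in all). Dividing by column totals, which lowers I-KO 3 against the other libraries, raised the number lowest in I-KO 3 to 36 (94.7%, beside 33.9% of all genes), and size factors by the median of ratios left it at 31. The libraries were set side by side in this way after their values had been seen, and the counts are a description with no test.

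By phase, the median in I-KO 3 was 97.7% of the lox/lox mean for the G1/S switch, 81.9% for DNA synthesis, 81.7% for licensing, 80.3% for G1 entry, 75.5% for G2 and 74.2% for mitosis. In I-KO 1 it was 98.8% for licensing, 96.1% for the G1/S switch, 91.1% for G1 entry, 90.8% for DNA synthesis, 87.7% for mitosis and 81.8% for G2. The highest phase median was that of the mitotic genes in I-KO 2, at 116.9%. Values for mitosis were therefore the most spread over the I-KO mice and those for the G1/S switch the least.

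Some markers of other cell types moved with these libraries. The 5 Paneth cell markers measured, of crypt-base cells that do not divide, summed to between 1630 and 2144 CPM in lox/lox mice and to 1442, 2819, 1070 and 2193 CPM in I-KO 1 to 4, and each of the 5 was lowest in I-KO 3. The 7 crypt stem cell markers summed to between 253 and 309 CPM in lox/lox mice and to 239, 345, 180 and 412 CPM in I-KO 1 to 4. This sum followed Olfm4, a secreted crypt-base protein, which was at 113.5, 203, 73.9 and 273 CPM. Without Olfm4 the other 6 summed to between 114.5 and 138.2 CPM in lox/lox mice and to 125.2, 141.7, 106.0 and 138.7 CPM in I-KO 1 to 4, so that I-KO 3 was still lowest but I-KO 1 was among the controls. Lgr5, the defining marker of that list, was at 4.94, 5.92 and 4.48 CPM in lox/lox mice and at 5.60, 8.29, 7.36 and 7.07 CPM in I-KO mice. It was not low in I-KO 3. I-KO 1 lay among the controls and the other I-KO mice above them (difference 0.40, limma, unadjusted p = 0.0140, adjusted p = 0.932). The 8 enterocyte markers summed to between 52993 and 62890 CPM in lox/lox mice and to 68663, 51298, 68247 and 54631 CPM in I-KO 1 to 4. The high sums came from the apolipoprotein genes Apoa1 and Apoa4. Without them the other 6 summed to between 18473 and 20466 CPM in lox/lox mice. In I-KO 1 to 4 these 6 summed to 18325, 17085, 20134 and 18396 CPM. I-KO 1, I-KO 2 and I-KO 4 were below all controls, with I-KO 2 the lowest, and I-KO 3 was among the controls. Fabp1, among these 6, was at 3380.1, 3397.8 and 4228.5 CPM in lox/lox mice. In I-KO 1 to 4 it was at 3215.1, 2108.7, 2543.8 and 2111.1 CPM (difference -0.57, limma, unadjusted p = 0.00621, adjusted p = 0.822). Fabp2 and Anpep also differed downwards (-0.26 and -0.14), and Alpi, Sis and Lct upwards (0.31, 0.09 and 0.25). The low sums thus do not stand for every marker of the list. The 8 T cell markers, of cells that can also divide, summed to between 177 and 186 CPM in lox/lox mice and to 208, 141, 246 and 164 CPM in I-KO mice. The 8 B and plasma cell markers summed to between 3083 and 4397 CPM in lox/lox mice and to 3461, 2977, 4201 and 2523 CPM in I-KO mice. For both lymphocyte lists I-KO 1 and I-KO 3 were above I-KO 2 and I-KO 4. The 6 smooth muscle markers were highest in I-KO 1, at 1550 CPM, where the other 6 libraries had between 1063 and 1320 CPM. No marker of these 6 lists was at 0 in all libraries. In whole tissue, fewer dividing cells and less of these transcripts per cell cannot be told apart, and the part of the crypt share of each sample in these levels was not tested.

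**Figure D5:**
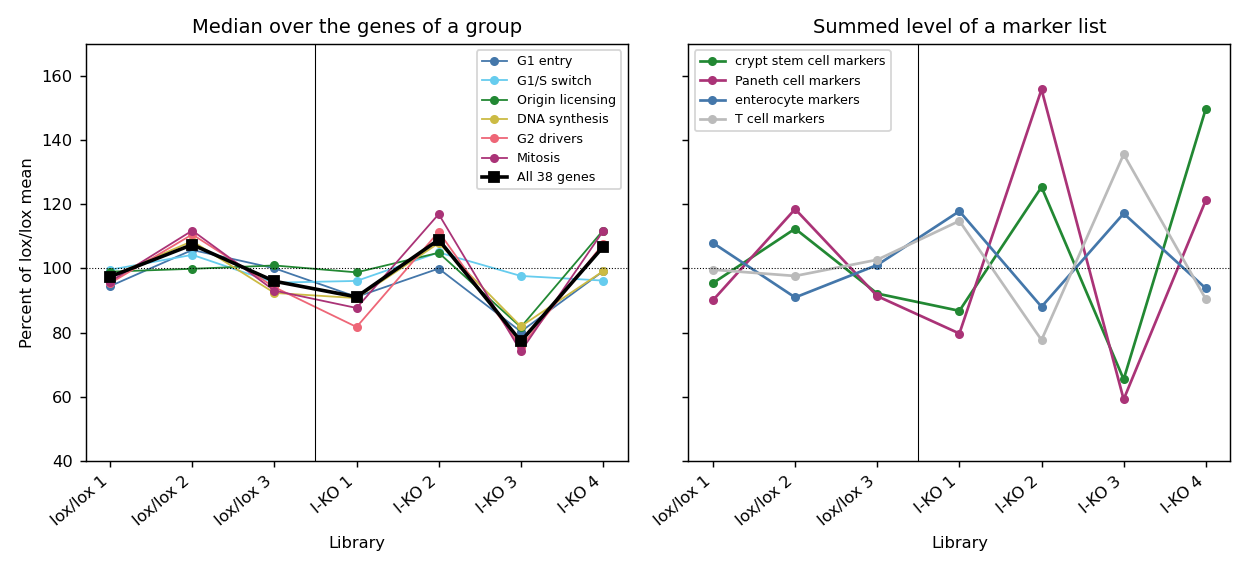
Left, median level of the genes of each phase and of all 38 genes in each library, as a percentage of the lox/lox mean (vertical axis). Right, summed level of the crypt stem cell, Paneth cell, enterocyte and T cell markers in the same libraries, on the same scale. The cell cycle median is lowest in I-KO 3 (77.3%), where the Paneth and stem cell sums are also lowest. The stem cell sum follows Olfm4, and the enterocyte sum follows Apoa1 and Apoa4.

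The other genes of the pathway were read from a list of 121 measured genes. None passed the test over all genes (0 of 121, limma), 2 were lower and 2 higher at an unadjusted p of 0.05 (1.65% each, beside the 2.42% and 2.32% given above), and 2 were lower and 1 higher without overlap (1.65% and 0.826%, beside 3.28% and 2.91%). I-KO 3 was the lowest library for 66 of them (54.5%), and for 41 of the 53 genes of G2 and mitosis among them (77.4%). Spc25, a part of the NDC80 complex that holds microtubules at kinetochores, was at 9.03, 9.09 and 9.08 CPM in lox/lox mice and at 7.09, 8.33, 6.30 and 7.90 CPM in I-KO mice. Its groups did not overlap (difference -0.27, limma, unadjusted p = 0.0244, exact two-sided permutation test, p = 0.0571). Cks2, a small partner of cyclin-dependent kinases, stood at 80.1% of the lox/lox mean (unadjusted p = 0.0422), with overlapping groups. Orc2, a subunit of the origin recognition complex, stood at 86.4% without overlap (unadjusted p = 0.0674). Over the 14 alternatives the unadjusted p of limma reached 0.0625 for Spc25, 0.154 for Cks2 and 0.184 for Gadd45a, described next.

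The inhibitors of the cycle are described beside these. Of the 12 genes of CDK inhibitors, retinoblastoma family and arrest factors that were measured, 10 had a higher mean in I-KO mice (beside 50.6% of all genes), with a median difference of 0.08 on the log2 scale and several members near 0. With a library left out, between 8 and 11 were higher, and this count was not tested. In I-KO 1 to 4 their median was 106.3%, 100.3%, 113.5% and 111.1% of the lox/lox mean. It was thus high both in I-KO 3 and in I-KO 4, where the median of the 38 genes was 77.3% and 106.7%. Cdkn1c, which codes for a CDK inhibitor that holds cells out of the cycle (chr7:143458339-143461050, minus strand), was at 3.21, 3.09 and 2.95 CPM in lox/lox mice and at 4.65, 4.56, 3.92 and 4.59 CPM in I-KO mice. Every I-KO mouse lay above every control. The mean was 143.7% of the lox/lox mean, from between 65 and 116 reads per library (difference 0.41, standard error 0.08, limma, unadjusted p = 0.000836, adjusted p = 0.467). The exact two-sided permutation test gave p = 0.0286, the smallest possible. Cdkn1a, a target of p53 and a marker of cells that leave the cycle, averaged 214.3 ± 17.9 CPM (SD, n = 3) and 251.5 ± 28.3 CPM (SD, n = 4), with overlapping groups (unadjusted p = 0.0707). Gadd45a, a stress-induced growth arrest gene, averaged 48.3 ± 7.19 and 58.4 ± 5.16 CPM (unadjusted p = 0.0428), also with overlap, and its difference of 0.28 became 0.17 without lox/lox 3 and 0.38 without lox/lox 1. None of the 3 passed the adjusted threshold, so that Ccnd1 and Cdkn1c, lower and higher in 4 of 4 I-KO mice, were differences between these mice that a test over all genes did not call.

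The remaining planned ratios did not separate the genotypes either. Ccne1 to Ccna2, which sets the G1/S cyclin against that of S and G2, was 0.104 ± 0.0027 in lox/lox mice (SD, n = 3) and 0.113 ± 0.016 in I-KO mice (SD, n = 4), a difference of 0.11 on the log2 scale (exact two-sided permutation test, p = 0.486). Pcna to Mki67 was 0.737 ± 0.06 and 0.741 ± 0.10, with p = 1.00 in the exact two-sided permutation test.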

How the data were processed

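Whole duodenal RNA of 3 lox/lox and 4 I-KO mice was sequenced after TruSeq stranded library preparation. The submitters' processing notes name FastQC 0.11.2, TopHat2 2.0.13, Picard 1.80, HTSeq 0.6.1 and edgeR with mm10. The authors deposited normalised counts (a signal, CPM of an adjusted library size) to 2 decimals, and 1 line without a gene name was left out. Low values lie on steps of 1 read, and reads were taken from these steps for depth and counting error. In every library 100% of low values lay on a step within the rounding to 2 decimals, so they are likely whole reads. Within the narrower 0.1 of a step, which this rounding cannot always meet, the share was between 78.9% and 100%. The narrower share was required to be at least 95% in each library for a test on counts, so none was made. The precision of a level is set by the spread between mice, and counting error covers the reads alone. Replicate pairs differed beyond sampling noise (chi-square over its degrees of freedom, 13.9 or more), and p-values measure the spread between the libraries that the labels call biological replicates.

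Genes that exceeded a CPM of 1 in 3 or more libraries were fitted with limma 3.58.1 in R 4.3.3 on log2(CPM + 1), computed here, with genotype as the only term, two-sided p-values and Benjamini-Hochberg adjustment at 0.05. Log2 differences on this scale understate changes of low genes. Single values and ratios were tested by exact permutation over 35 splits, and the fit was tested on simulated data. The members, the phases, the other lists and the alternatives were chosen with earlier results of these data known, and the promoter motifs after the data were seen. All 38 members are named, with the 6 other pathway genes of smallest p, and marker genes after their values were seen, as were the sums without single markers. Gene positions and exonic lengths (union of annotated exons) come from GENCODE M21 on GRCm38, and promoters from RefSeq on GRCm38.p6. Cdkn2a was not used here. Alternatives were 2 other scalings, no filter, a pseudocount of 0.5, an intensity trend, sample quality weights, a replicate block and each library left out. Python 3.11.15 and matplotlib 3.10.9 served for tables and figures.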

Additional observations from a re-analysis of the deposited data

Results flagged for a closer look

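The 4 I-KO libraries were searched for 38 cell cycle genes, 6 other pathway genes and 6 ratios, 50 groups of values in all, and 3 of these held a value that stood apart by Dixon's ratio, the gap to the nearest library over the whole range. Each exceeded the 95% limit of that ratio for 4 libraries. About 2.5 would do so by chance. Mcm2 was low in I-KO 3 with a ratio of 0.914 (22.9 CPM, where the other I-KO libraries had between 31.4 and 32.2 CPM). Mcm3 was low in the same library with a ratio of 0.854 (26.3 CPM, where the others had between 33.3 and 34.5 CPM). Cdkn1c, a CDK inhibitor, was also lowest of the I-KO libraries in I-KO 3, with a ratio of 0.877 (3.92 CPM, where the others had between 4.56 and 4.65 CPM), and yet above all 3 lox/lox libraries.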

How the results depend on the processing

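No member was called under any of the 14 alternatives, and the smallest adjusted p of any member was 0.342 (Ccnd1). Ccnd1 kept its direction and an unadjusted p below 0.05 in all 14, as did Cdkn1c. The number of genes called over all genes was 4 and became 12 with sample quality weights, in which I-KO 1 had the lowest weight, and between 3 and 5 with a library left out. The number of members with a lower mean was between 15 (without I-KO 3) and 34 with a library left out, and 34 with column totals, which shifted the median of all genes to -0.032 and that of the members to -0.09. Of 532 member values, 60 changed sign, and 16 members never did. With a library left out the log2 differences ran from -0.15 to 0.044 for Ccnd2, -0.063 to 0.074 for Ccnd3, -0.072 to 0.065 for Ccne1, -0.13 to 0.0048 for Mybl2, -0.11 to 0.046 for Mcm2, -0.016 to 0.11 for Mcm3, -0.11 to 0.066 for Mcm4, -0.040 to 0.19 for Mcm5, -0.020 to 0.091 for Mcm6, -0.14 to 0.020 for Mcm7, -0.12 to 0.078 for Rrm2, -0.032 to 0.19 for Tk1, -0.15 to 0.13 for Ccnb1, -0.20 to 0.0091 for Ccnb2, -0.078 to 0.093 for Foxm1, -0.18 to 0.044 for Mki67, -0.12 to 0.093 for Aurkb, -0.16 to 0.082 for Birc5, -0.12 to 0.097 for Cdc20, -0.23 to 0.046 for Kif11, -0.11 to 0.15 for Kif20a and -0.11 to 0.11 for Plk1. What sets these libraries apart was not tested. Signs also changed with column totals for Ccnd3 (-0.016), Mcm3 (-0.016), Mcm6 (-0.0065) and with sample quality weights for Rrm2 (0.064) and Kif20a (0.018).

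The replicate numbers did not pair the libraries: the deviations of same-numbered libraries correlated at -0.01, 0.18 and -0.01. With the replicate number as a block, 3 members were lower at an unadjusted p of 0.05 (Ccnd1, Tyms and Bub1), 3 genes were called over all genes, and signs changed for Ccne1 (0.00051), Mcm3 (-0.014), Mcm5 (-0.040), Mcm6 (-0.016), Rrm2 (0.0075), Tk1 (-0.032), Birc5 (0.031). I-KO 4 has no partner, so the block leaves it out of the differences and of the ratios. Ccnd1 to Ccnd3 then differed by -0.35 (exact sign-flip permutation, p = 0.25, the smallest for 3 pairs). With a library left out this ratio differed by between -0.36 and -0.24, and the exact test cannot reach 0.05 at those sizes (smallest p 0.0667 or 0.1). Pcna to Mki67 ran from -0.071 to 0.064. The edgeR and DESeq2 tests on whole reads were not run, since 5 libraries missed the chosen limit on closeness to a step, although all low values were whole reads within rounding. At 3 and 4 mice, 95% intervals of the members had half-widths of between 0.17 and 0.54.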
